A study of Mus musculus with 10 samples.

Results

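The ribosomal protein and elongation factor genes examined here are 88 of the 55487 gene rows of the table. They were chosen by symbol: Rpl or Rps followed by a number and at most 1 letter, plus Rplp0, Rplp1, Rplp2, Rpsa, Eef1a1, Eef1b2, Eef1d, Eef1g and Eef2. By role they comprise 48 genes of the large (60S) subunit, 3 of the P-stalk, 32 of the small (40S) subunit and 5 elongation factors. Of the 88 genes, 85 are annotated as protein-coding in GENCODE M21, Rps4l is annotated as a transcribed processed pseudogene, and Rpl32l and Rpl6l as processed pseudogenes.

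Gene expression was measured by sequencing polyadenylated RNA from 10 primary tumours of the pancreas, grown in KPF mice, a pancreatic cancer model on the C57BL/6J background. The 5 tumours labelled Grem1-deleted came from mice given tamoxifen at 100 mg/kg body weight daily for 5 days from the age of 5 weeks. The 5 tumours labelled Grem1 wild-type came from mice given peanut oil on the same schedule, and mice of both groups were 6 to 12 weeks old at use. Genotype and tamoxifen therefore cannot be told apart. Grem1 encodes a secreted antagonist of bone morphogenetic proteins. Neither the alleles behind the letters KPF nor the recombinase that deletes Grem1 is given in the sources used here. The labels call the tumours biological replicates without saying that each came from its own mouse, so p-values measure the spread between these samples.

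A ribosome is built from a large and a small subunit, each a core of ribosomal RNA covered by proteins that are mostly encoded by 1 gene each and needed in equal numbers. The P-stalk, made of the products of Rplp0, Rplp1 and Rplp2, recruits the factors that drive elongation. Eef1a1 carries aminoacyl-tRNA to the ribosome, the products of Eef1b2, Eef1d and Eef1g reload it with GTP, and Eef2 moves the ribosome along the mRNA. Many of these mRNAs start with a cytosine followed by a run of pyrimidines (a terminal oligopyrimidine, or TOP, sequence), through which mTOR and Larp1 control their translation and stability together.

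The sequence around the start of transcription was searched for a pyrimidine run, a wider criterion than a TOP sequence, since the run may lie on either side of the listed start. Several genes described below are printed to show starts with and without such a run. The RefSeq promoter table (GRCm38.p6) lists a start for 64 of the genes. Of these 64, 30 (46.9%) had a run of at least 8 C or T letters reaching within 10 bases of a listed start. Only the strand with the same sequence as the RNA was searched. Among all 17491 protein-coding genes with a listed start, 2772 (15.8%) had such a run. The run was present in 17 of 36 genes of the 60S subunit, 11 of 23 of the 40S subunit, 1 of 2 of the P-stalk and 1 of 3 elongation factors. The 60S count includes Rpl32l, which RefSeq lists as protein-coding and GENCODE as a pseudogene and which was at 0 in all 10 tumours. Each line below holds 15 bases before the listed start and 15 from it, 5′ to 3′ on that same strand, with the run in capitals. The run of Rpl27a, 20 bases long, goes on past the end of its line. Rps6, whose product is the classical substrate of the S6 kinases, lies at chr4:86857353-86857382 on the minus strand, and Rps27 lies at chr3:90213634-90213663 on the minus strand. Eef1a1 lies at chr9:78481710-78481739 on the minus strand and Rpl27a at chr7:109519180-109519209 on the plus strand. Rps27l, the paralogue of Rps27, has a listed start at chr9:66946071-66946100 and another at chr9:66946398-66946427, both on the plus strand, and a run is found at the upstream one alone, where it ends before the start. No run was found in the windows of Eef2 (chr10:81176616-81176645, plus strand) and Rplp0 (chr5:115559452-115559481, plus strand), which is a statement on these letters alone.
Rps6: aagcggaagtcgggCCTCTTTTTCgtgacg
Rps27: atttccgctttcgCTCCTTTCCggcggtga
Rpl27a: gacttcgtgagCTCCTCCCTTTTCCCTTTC
Eef1a1: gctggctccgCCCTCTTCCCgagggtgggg
Rps27l upstream start: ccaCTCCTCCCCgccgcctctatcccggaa
Rps27l downstream start: accatgggcttcagggtcactaacgggcct
Eef2: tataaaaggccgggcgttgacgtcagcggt
Rplp0: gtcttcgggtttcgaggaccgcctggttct

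Total estimated counts ran from 10159891 to 18571519 per tumour. The targeted gene did not follow the labels: Grem1 had 6.83 to 110.1 CPM (each count divided by the scaled library size and brought to a common total) in tumours labelled deleted and 3.97 to 43.1 CPM in wild-type tumours, with a log2 fold change of 1.08 (SE 0.79, adjusted p 0.761, edgeR's quasi-likelihood test). The groups are therefore named by their labels throughout, and every direction below is that of the labels. Labelled-deleted tumour 1 stood apart on the first principal component of all genes, at -125.7, against -12.3 to 37.99 in the other tumours. It also had the lowest summed level of the 10 epithelial markers, 1929 CPM, against 3749 to 5442 CPM in the other labelled-deleted tumours and 5111 to 6310 CPM in the wild-type tumours. All 10 epithelial markers had a log2 fold change below 0, and 0 passed the adjusted threshold (edgeR). Unadjusted p (edgeR) was under 0.05 for 4 of them, beside 2.46% of all genes that were lower at that level. Without labelled-deleted tumour 1, Cldn7 (0.094) and Elf3 (0.071) were above 0. The macrophage markers were also all below 0, 3 of the 10 at that unadjusted level, while the fibroblast markers had 7 below and 3 above. The 10 epithelial, 10 fibroblast and 10 macrophage markers were tested and detected, and none was at 0 in all tumours. The fibroblast markers summed to 8305 to 28540 CPM in labelled-deleted and 15610 to 28430 CPM in wild-type tumours, and the macrophage markers to 1770 to 4712 CPM and 3409 to 5884 CPM in the same order of groups. Labelled-deleted tumour 2 had 3663 CPM of intestinal epithelium markers, against at most 97.0 CPM in the other labelled-deleted tumours and 83.4 to 125.4 CPM in wild-type tumours. The tissue is described as bulk tumour in the labels, while their extraction text speaks of sorted cells. In bulk tissue, fewer cells of a type and less RNA per cell cannot be told apart.

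The 88 genes together took 5.78%, 4.58%, 4.90%, 4.44% and 4.12% of the estimated counts in labelled-deleted tumours 1 to 5, against 4.26%, 4.90%, 4.85%, 4.23% and 4.70% in wild-type tumours 1 to 5. Labelled-deleted tumour 1 was the highest of the 10 and labelled-deleted tumour 5 the lowest, so the labelled-deleted group spanned the whole range of the wild-type group. The means were 4.76% ± 0.63 in labelled-deleted and 4.59% ± 0.32 in wild-type tumours (SD, n = 5 each), a difference of 0.176 percentage points that is smaller than either SD. Without labelled-deleted tumour 1 the labelled-deleted mean was 4.51% ± 0.32, below the wild-type mean by less than the SD of either group. The group difference in this share thus took its sign from 1 tumour.

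The 60S and 40S genes kept nearly the same proportion in every tumour. The 60S genes took 1.71% to 2.44% of counts in labelled-deleted and 1.73% to 2.07% in wild-type tumours, and the 40S genes 1.28% to 1.84% and 1.3% to 1.57% in the same order. The ratio of the 2 sums was 1.27 to 1.35 in labelled-deleted and 1.29 to 1.34 in wild-type tumours. The P-stalk genes took 0.216% to 0.301% in labelled-deleted and 0.214% to 0.273% in wild-type tumours. The elongation factors took 0.915% to 1.20% in labelled-deleted and 0.870% to 1.05% in wild-type tumours, and Eef1a1 alone accounted for 0.576% to 0.766% and 0.564% to 0.669% of all counts. The ratio of the elongation factor sum to the 40S sum varied more, from 0.625 to 0.715 in labelled-deleted and from 0.617 to 0.765 in wild-type tumours. Each of these role shares was highest in labelled-deleted tumour 1.

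**Figure D1:**
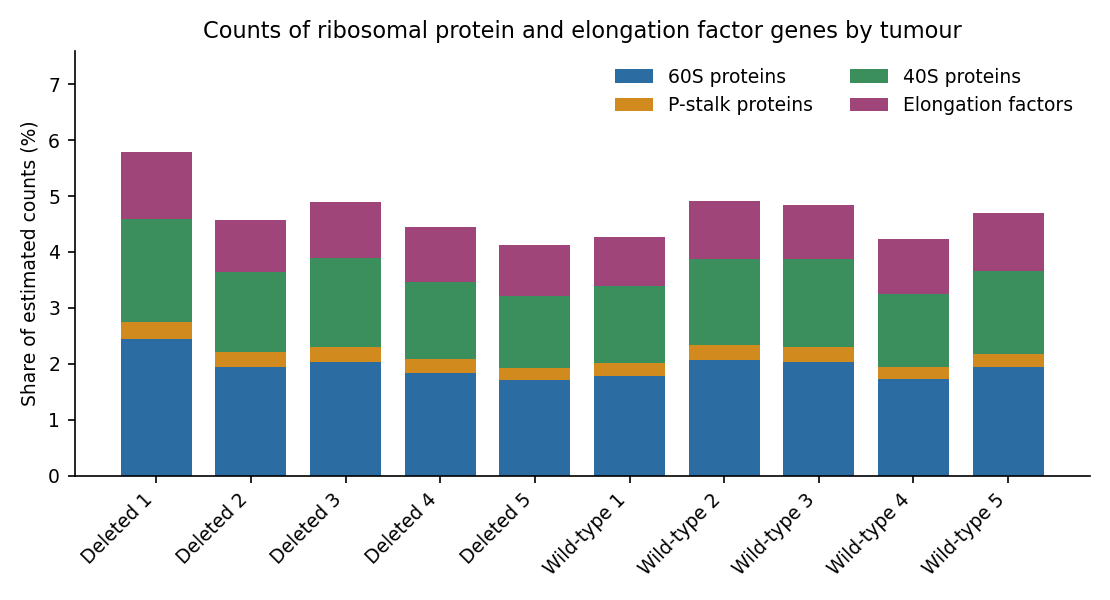
Share of each tumour's estimated counts (percent) taken by the 88 genes, stacked by role; Deleted and Wild-type are the labelled groups and each bar is 1 tumour. Deleted tumour 1 reaches 5.78% and deleted tumour 5 only 4.12%, with the wild-type tumours between 4.23% and 4.90%.

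Proliferation genes were also highest in labelled-deleted tumour 1. The 20 genes of that list, all tested and none past the adjusted threshold, summed to 1976 CPM there, against 644.7 to 1060 CPM in labelled-deleted tumours 2 to 5 and 676.9 to 966.9 CPM in wild-type tumours. In labelled-deleted tumour 5, which had the lowest share of the ribosomal protein and elongation factor genes, they summed to 679.5 CPM, close to the 676.9 CPM of wild-type tumour 2, which had a share of 4.90%. Acinar markers, which mark the digestive enzyme cells of the normal pancreas, summed to 12820 CPM in labelled-deleted tumour 5 and to 14510 CPM in wild-type tumour 5, whose shares of 4.12% and 4.70% differed. Their part in the shares was not tested.

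Of the 88 genes, 83 had enough counts to be tested. None of the 83 passed an adjusted p of 0.05 in the comparison of labelled-deleted with wild-type tumours (edgeR's quasi-likelihood F test with Benjamini-Hochberg adjustment), as was the case for 0% of all 16565 genes tested, where the lowest adjusted p was 0.759. DESeq2 called 7 genes of 31198 (0.0224%) and none of the 83, and limma-voom called none. At an unadjusted p under 0.05 there was 1 of the 83 genes, Rps27l, which was lower in labelled-deleted tumours, against 2.46% of all genes that were lower at that level and 5.93% in either direction. There was none without wild-type tumour 1 or wild-type tumour 5, and there were 2 without labelled-deleted tumour 3 or labelled-deleted tumour 5. The estimated log2 fold changes were small, from -0.24 (Rps4l) to 0.29 (Rpl32), with a median of 0.053, beside 0.027 over all genes tested. The median SE was 0.118 for the 83 genes and 0.193 for all genes. For 80 of the 83 genes the 95% confidence interval lay within a 1.5-fold difference in either direction, and the exceptions were Rpl32, Rps14 and Rps4l.

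Of the 83 genes, 67 had a log2 fold change above 0 and 16 below 0, beside 55.1% above 0 among all genes. This split turned with 1 tumour. Without labelled-deleted tumour 1, 20 genes were above 0 and 63 below, with a median of -0.039, beside 51.9% above 0 and a median of 0.008 over all genes. Without labelled-deleted tumours 1 and 2, 9 were above 0 and 74 below, with a median of -0.057, beside 49.3% and -0.003 over all genes. With the number in the tumour's ID as a block, 35 of the 83 genes were above 0, beside 50.7% of all genes. Labelled-deleted tumours 1 and 4 each had an ID number that no other tumour shared. This block thus takes both out of the comparison of groups and is not independent of leaving out tumour 1. By role the median log2 fold change was 0.062 for the 60S genes, 0.029 for the P-stalk, 0.048 for the 40S genes and 0.038 for the elongation factors. Without labelled-deleted tumour 1 the medians were -0.035, -0.054, -0.046 and -0.051 in the same order of roles. The medians of the 4 roles had the same sign in each case.

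**Figure D2:**
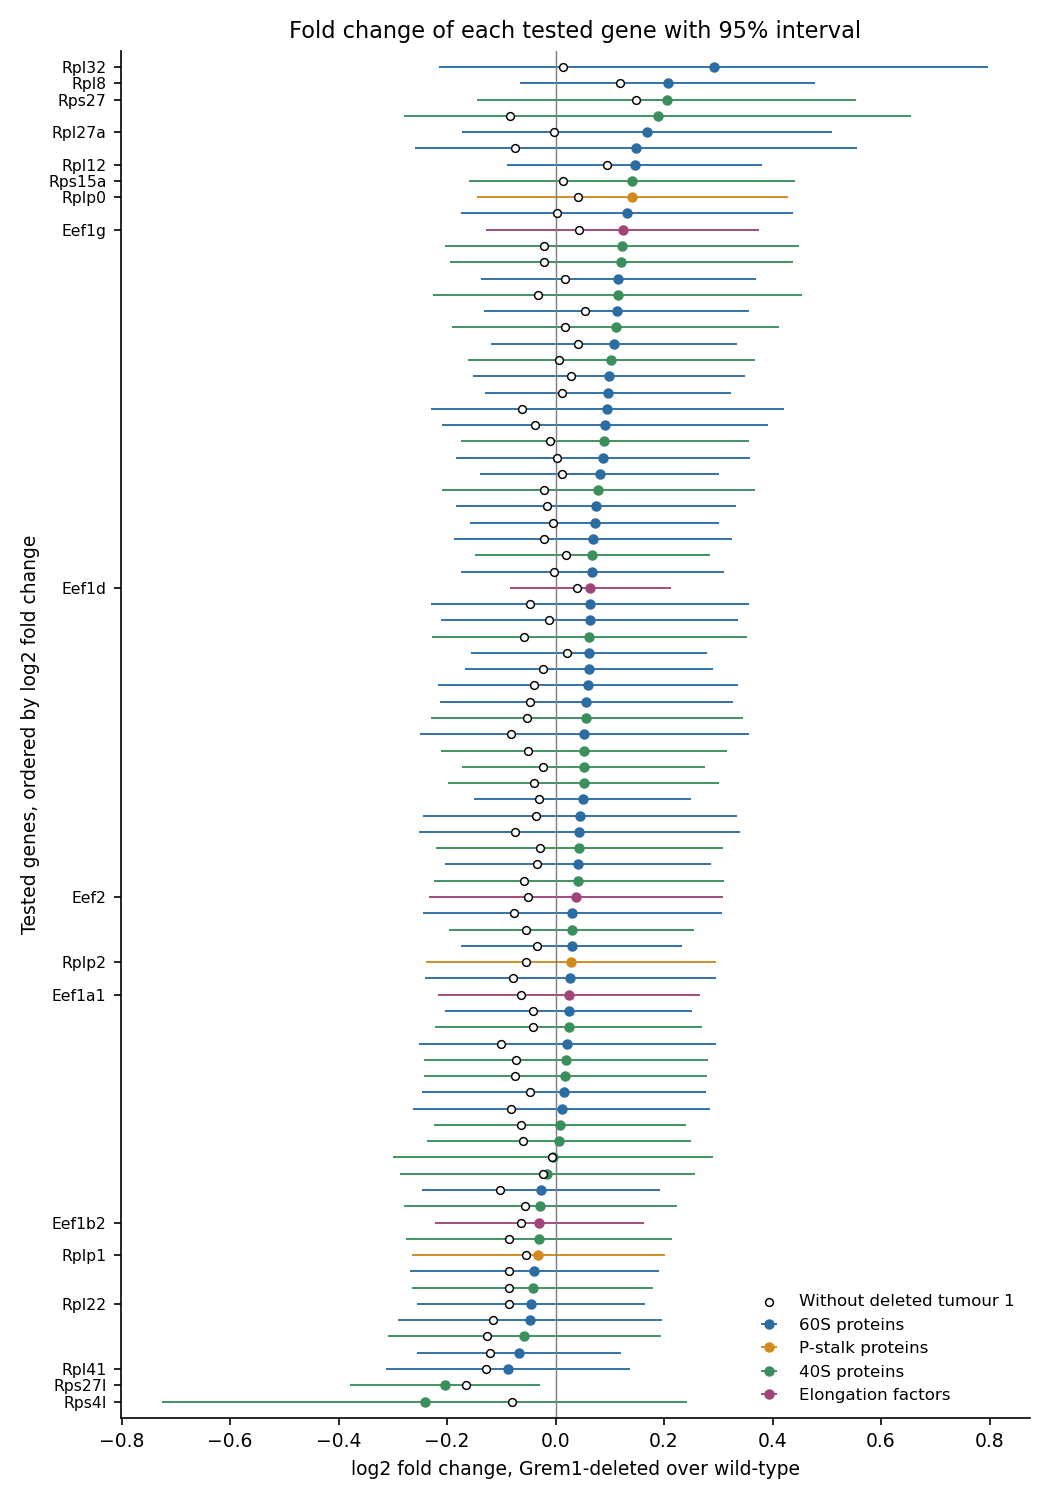
Log2 fold change (labelled-deleted over wild-type) of each of the 83 tested genes with its 95% interval, filled points coloured by role, and the value without labelled-deleted tumour 1 as an open point; some of the genes named in the text are labelled. The filled points run from -0.24 to 0.29, 67 of them above 0, and 63 of the open points lie below 0.

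Much of the spread between tumours was common to most of these genes. For each gene the log2 CPM values were centred on the gene's mean over the 10 tumours, and the median over the 83 genes was taken in each tumour. This median was 0.323, -0.003, 0.047, -0.109 and -0.190 in labelled-deleted tumours 1 to 5, against -0.124, 0.051, 0.081, -0.167 and 0.035 in wild-type tumours 1 to 5. In labelled-deleted tumour 1, 81 of the 83 genes were above their own mean, and in labelled-deleted tumour 5 only 2 were. In the wild-type group 73 genes were above their mean in tumour 3, and 6 in tumour 4. Labelled-deleted tumour 1 had the highest value of the 10 tumours for 69 of the 83 genes, among them 39 of 43 tested 60S genes, 24 of 32 40S genes, 2 of 3 P-stalk genes and 4 of 5 elongation factors, while 27.9% of all genes tested were highest there. The lowest value fell in labelled-deleted tumour 5 for 34 genes, in wild-type tumour 4 for 24 and in wild-type tumour 1 for 14.

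The median SD of log2 CPM over the 10 tumours was 0.173 for the 83 genes and 0.3 for all genes tested. After subtraction of each tumour's median over the 83 genes it was 0.0807, and the SD became smaller for 78 genes and larger for 5, which were Rps4l, Rps27l, Rpl12, Eef1d and Rpl7. Without labelled-deleted tumour 1 the 2 values were 0.129 and 0.0741, so the shared part of the spread was present without that tumour. Rpl11, which with Rpl5 and 5S ribosomal RNA binds Mdm2 when ribosome assembly stalls, held its ratio to the other genes most closely, with an SD of 0.0371 after subtraction. Small SDs were also those of Rpsa at 0.0414, Rpl21 at 0.0435 and Rps3 at 0.0444. The largest SDs after subtraction were those of Rps4l (0.504), Rps27l (0.254), Rpl32 (0.244), Rps14 (0.204) and Rps29 (0.188).

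**Figure D3:**
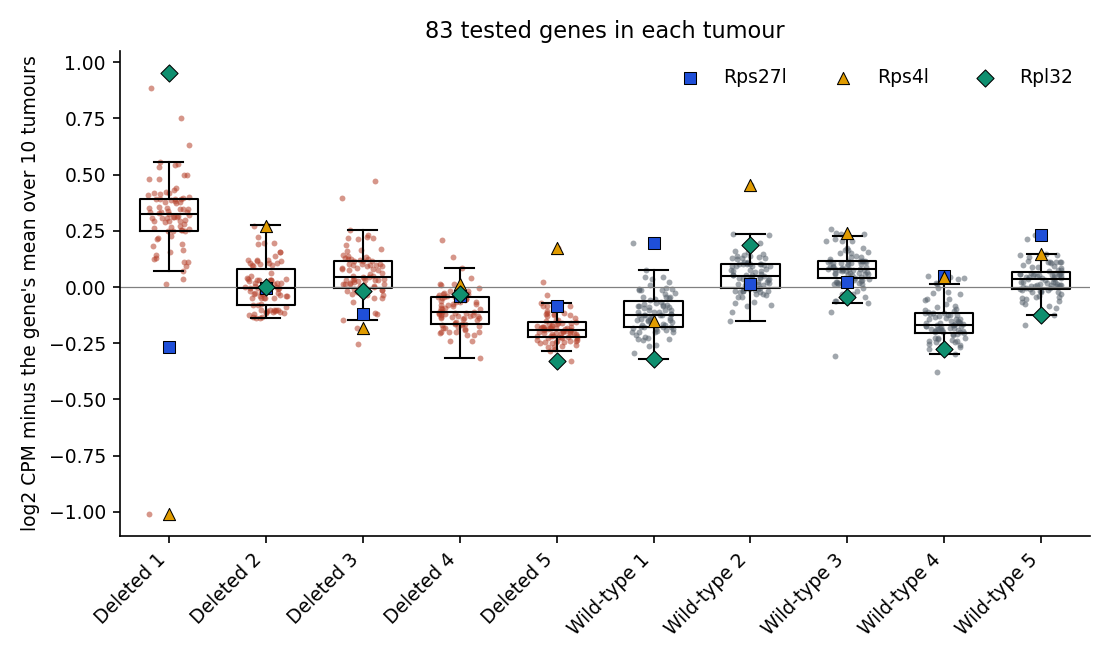
Log2 CPM of each of the 83 tested genes minus its mean over 10 tumours, 1 point per gene, with boxes for the median and quartiles and whiskers to the furthest gene within 1.5 box lengths; Rps27l, Rps4l and Rpl32 have their own symbols. The whole cloud sits at a median of 0.323 in deleted tumour 1 and -0.190 in deleted tumour 5, while Rps4l and Rps27l lie below the cloud in deleted tumour 1 and Rpl32 above it.

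Among the 60S genes, Rpl32 had the largest log2 fold change. It had 868.6, 449.4, 443.0, 439.1 and 356.7 CPM in labelled-deleted tumours 1 to 5, against 359.6, 511.1, 435.7, 370.4 and 411.4 CPM in wild-type tumours. Tumour 1 alone was high, and the other 4 labelled-deleted tumours lay within or just below the wild-type range. The log2 fold change was 0.29 (SE 0.23, adjusted p 0.768, edgeR) and 0.014 without labelled-deleted tumour 1. Rps14, a 40S protein, and Rpl17, of the 60S subunit, were also high in that tumour. Rps14 had 1120, 565.4, 585.8, 528.7 and 520.9 CPM in labelled-deleted tumours 1 to 5, against 574.8, 628.5, 581.8, 508.1 and 620.7 CPM in wild-type tumours. Rpl17 had 983.9 CPM in labelled-deleted tumour 1, 500.7 to 581.1 CPM in the other labelled-deleted tumours and 509.1 to 607.9 CPM in the wild-type tumours. After subtraction of the tumour's median over the 83 genes, Rpl32 (chromosome 6), Rps14 (chromosome 18) and Rpl17 (chromosome 18) stood above their own means in labelled-deleted tumour 1 by log2 differences of 0.625, 0.556 and 0.423, the 3 largest of the 83 genes. Rpl17 and Rps14 were the only genes of the set on chromosome 18, and chromosome 6 also holds Rps4l, for which the same log2 difference was -1.34.

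Rpl8, a 60S protein near the peptidyl transferase centre, had 942.1, 821.9, 725.6, 703.3 and 618.9 CPM in labelled-deleted tumours 1 to 5, against 587.5, 726.7, 711.2, 609.8 and 667.9 CPM in wild-type tumours. The groups overlapped, and the log2 fold change was 0.21 (SE 0.12, adjusted p 0.759, edgeR), or 0.118 without labelled-deleted tumour 1. Relative to the tumour's median over the 83 genes, every labelled-deleted tumour lay above every wild-type tumour, by 0.158 on the log2 scale between the group means, but the nearest values, -0.010 in labelled-deleted tumour 3 and -0.012 in wild-type tumour 2, were almost tied. It was the only one of the 83 genes whose groups did not overlap on that scale, beside 0.356% of all genes treated the same way. All its estimated counts were whole numbers. Rpl12, at the base of the stalk, had a log2 fold change of 0.15 (SE 0.11), or 0.095 without labelled-deleted tumour 1, and Rpl27a one of 0.17 (SE 0.15), or -0.002 without labelled-deleted tumour 1. Rpl5 and Rpl11 had log2 fold changes of 0.016 (SE 0.118) and 0.027 (SE 0.121), or -0.048 and -0.079 without labelled-deleted tumour 1. The log2 fold changes of Rpl3, Rpl10, Rpl13a, Rpl23, Rpl26, Rpl39 and Rpl41 lay between -0.088 and 0.074. Without labelled-deleted tumour 1 they lay between -0.129 and -0.016.

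The 3 P-stalk genes did not share an order of tumours. Rplp0 had 1908, 1536, 1411, 1468 and 1225 CPM in labelled-deleted tumours 1 to 5, against 1254, 1579, 1459, 1206 and 1347 CPM in wild-type tumours, and labelled-deleted tumour 1 was the highest. Rplp1 had 730.5, 653.0, 816.5, 652.0 and 602.2 CPM in labelled-deleted tumours, against 673.4, 717.1, 807.3, 636.7 and 696.5 CPM in wild-type tumours, with tumour 3 the highest of each group. Rplp2 had 329.4 to 469.3 CPM in labelled-deleted and 331.5 to 436.2 CPM in wild-type tumours. The groups overlapped for all 3 genes, with log2 fold changes of 0.14 (SE 0.13) for Rplp0 (0.042 without labelled-deleted tumour 1), -0.032 (SE 0.105) for Rplp1 and 0.029 (SE 0.120) for Rplp2.

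Among the 40S genes, Rps27l, a paralogue of Rps27 that is a target of p53 in human cells, was the one gene of the 83 whose groups did not overlap, beside 0.93% of all genes tested. It had 47.1, 56.5, 52.1, 55.0 and 53.5 CPM in labelled-deleted tumours 1 to 5, against 64.9, 57.1, 57.4, 58.5 and 66.4 CPM in wild-type tumours. Every labelled-deleted tumour was below every wild-type tumour; the nearest values were those of the 2 tumours with number 2. The means were 52.8 ± 3.62 CPM in labelled-deleted and 60.9 ± 4.46 CPM in wild-type tumours (SD, n = 5 each). The log2 fold change was -0.20 (SE 0.08, 95% interval -0.38 to -0.03, p 0.0264, adjusted p 0.759 in edgeR), so it did not pass the test over all genes. Among all genes tested, 0.435% had every labelled-deleted tumour below every wild-type tumour. Without labelled-deleted tumour 1 the log2 fold change was -0.17 (SE 0.07). In labelled-deleted tumour 1, the tumour in which 81 genes of the set were above their means, Rps27l had its lowest value of all 10 tumours.

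Rps27 itself, with which Rps27l shares most of its protein sequence, followed another order. It had 301.6, 263.0, 335.3, 210.3 and 204.3 CPM in labelled-deleted tumours 1 to 5, against 221.8, 248.5, 269.1, 186.2 and 215.1 CPM in wild-type tumours. The groups overlapped, tumour 3 was the highest of each group, and the log2 fold change was 0.20 (SE 0.16), or 0.091 without labelled-deleted tumour 3. All 10 Rps27 values were not whole, as happens where RSEM divides reads between rows, while 1 of the 10 Rps27l values was not whole. A further copy, Rps27rt, which the symbol rule does not take, had 10.3 to 20.9 CPM in labelled-deleted and 9.08 to 16.6 CPM in wild-type tumours, a log2 fold change of 0.23 (SE 0.21).

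**Figure D4:**
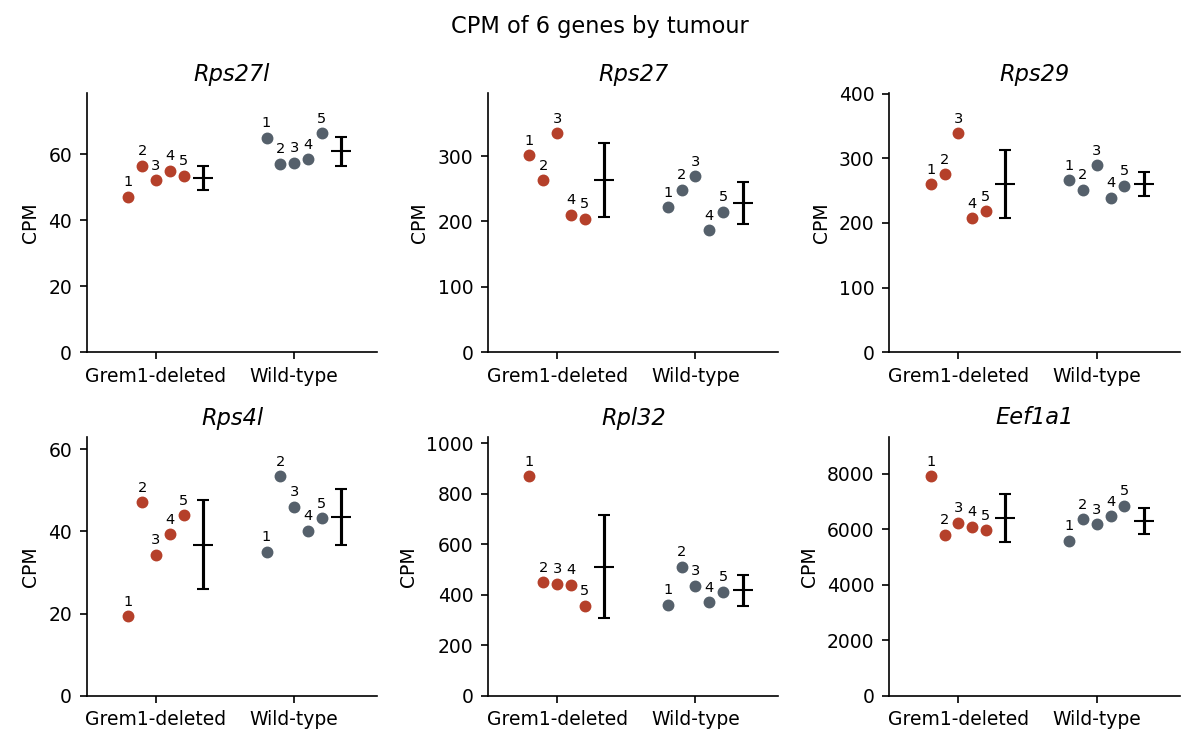
CPM of 6 genes in each tumour, labelled-deleted on the left (red) and wild-type on the right (grey), numbered by replicate, with the mean and SD of each group (n = 5) beside the points. Rps27l is the only panel in which the groups do not overlap (47.1 to 56.5 against 57.1 to 66.4 CPM), and tumour 1 stands off the other labelled-deleted tumours in the Rpl32, Eef1a1 and Rps4l panels.

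Rps4l, the processed pseudogene related to the X-linked Rps4x, went furthest from the other genes. It had 19.3, 47.1, 34.3, 39.3 and 44.0 CPM in labelled-deleted tumours 1 to 5, against 35.1, 53.4, 46.0, 40.2 and 43.2 CPM in wild-type tumours, with log2 fold changes of -0.24 (SE 0.22) and -0.081 without labelled-deleted tumour 1. Rps4x had 890.3 CPM in labelled-deleted tumour 1 and 609.4 to 751.3 CPM in labelled-deleted tumours 2 to 5, against 621.1 to 744.5 CPM in wild-type tumours. Labelled-deleted tumour 1 was thus the lowest tumour for Rps4l and the highest for Rps4x. All 10 Rps4l values were whole, whereas none of the Rps4x values was.

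Rps29, the smallest zinc-binding protein of the small subunit, had 260.1, 274.9, 339.0, 207.1 and 217.7 CPM in labelled-deleted tumours 1 to 5, against 266.2, 251.5, 288.9, 238.9 and 257.5 CPM in wild-type tumours. Here tumour 3 was the highest of each group, as for Rps27 and Rplp1, and the log2 fold change was -0.005 (SE 0.133). Labelled-deleted tumour 3 was the highest of the 10 tumours for 5 genes, Rps27, Rps29, Rps21, Rplp1 and Rpl37a, which all encode small proteins. Rps15a had a log2 fold change of 0.14 (SE 0.14), or 0.014 without labelled-deleted tumour 1. Rps6 had one of 0.090 (SE 0.120), Rps19, the gene most often mutated in Diamond-Blackfan anaemia, one of 0.057 (SE 0.130), and Rpsa one of 0.052 (SE 0.113). Without labelled-deleted tumour 1 the values of Rps6, Rps19 and Rpsa were -0.01, -0.053 and -0.039.

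The tumours differed in how the level of a gene, relative to the tumour's median over the 83 genes, went with its coding length. Spearman's rho with coding length over the 82 tested genes that have one was 0.24, -0.03, -0.46, 0.42 and 0.27 in labelled-deleted tumours 1 to 5, against -0.43, 0.03, -0.46, 0.44 and 0.14 in wild-type tumours 1 to 5. The pseudogene Rps4l has none. The sign differed between tumours of the same group in both groups. In labelled-deleted tumour 3 the 26 genes with a coding length under 400 bases had a median log2 difference of 0.063 from their own means, and the 12 genes of 800 bases or more one of -0.066. In wild-type tumour 4 these medians were -0.031 for the short and 0.062 for the long genes. The genes of a tumour share 1 library, its depth and its RNA quality, so these are descriptions, and the length limits were chosen after the values were seen. B-cell and T-cell markers were also highest in labelled-deleted tumour 3, summing to 803.4 and 118.5 CPM there, against at most 83.2 and 38.06 CPM in the other labelled-deleted tumours and at most 390.3 and 40.5 CPM in wild-type tumours. Their part was not tested.

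Among the elongation factors, Eef1a1 had 7898, 5804, 6237, 6090 and 5961 CPM in labelled-deleted tumours 1 to 5, against 5590, 6353, 6173, 6476 and 6849 CPM in wild-type tumours. Labelled-deleted tumour 1 was above all others, and labelled-deleted tumours 2 to 5 lay within the wild-type range. The log2 fold change was 0.025 (SE 0.109, 95% interval -0.22 to 0.27), or -0.063 without labelled-deleted tumour 1. Eef2 had 3291, 2529, 2622, 2579 and 2299 CPM in labelled-deleted tumours, against 2129, 2789, 2486, 2685 and 2887 CPM in wild-type tumours, with a log2 fold change of 0.038 (SE 0.122), or -0.051 without labelled-deleted tumour 1. The order of tumours was close to that of Eef1a1, with labelled-deleted tumour 1 the highest and wild-type tumour 1 the lowest for both genes. In wild-type tumour 4, where 6 of the 83 genes were above their own means, Eef2 and Eef1a1 stood 0.20 above their means relative to the tumour's median.

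The genes of the exchange factor overlapped between the groups as well. Eef1d had 126.1, 119.1, 117.2, 116.8 and 112.9 CPM in labelled-deleted tumours 1 to 5, against 109.1, 109.2, 120.5, 106.8 and 120.9 CPM in wild-type tumours, the smallest SD of log2 CPM of the 83 genes (0.0771). Its log2 fold change was 0.064 (SE 0.067). Eef1g had 444.2 to 645.7 CPM in labelled-deleted and 431.7 to 534.5 CPM in wild-type tumours, with a log2 fold change of 0.12 (SE 0.11), or 0.044 without labelled-deleted tumour 1. Eef1b2 had 331.1 to 393.8 CPM in labelled-deleted and 330.2 to 410.3 CPM in wild-type tumours, with a log2 fold change of -0.030 (SE 0.087). Eef1a2, the form of Eef1a1 used in neurons and muscle, had 0 to 1.63 CPM in labelled-deleted and 0 to 0.671 CPM in wild-type tumours and was not tested.

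Per kilobase of transcript, the levels of these genes spread over 2 orders of magnitude. Eef1a1 had the highest mean level over the 10 tumours, 3536 CPM per kb, followed by Rpl41 at 1521, Rplp1 at 1400, Rps12 at 1216 and Rpl13a at 1193 CPM per kb. The lowest tested genes were Rpl5 at 26.7, Rpl12 at 37.9, Eef1d at 50.1, Rps4l at 50.9 and Rps20 at 97.7 CPM per kb. The medians were 594 CPM per kb for the 60S genes, 648 for the 40S genes, 1060 for the P-stalk and 274 for the elongation factors. Per kilobase of coding length, Rps20 stood at 1014 CPM per kb, since its annotated transcript is 3706 bases long. Rpl41, which encodes the shortest ribosomal protein, was then the highest at 8863 CPM per kb, ahead of Eef1a1 at 4576. No value of Rpl5 or Rpl12 was a whole number, nor was any of Eef1a1, Rpl41, Rps12 or Rpl13a. The levels of these genes, high and low, rest on how reads shared with other rows were divided and are uncertain. Some values of Rplp1, Eef1d and Rps20 were not whole either.

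**Figure D5:**
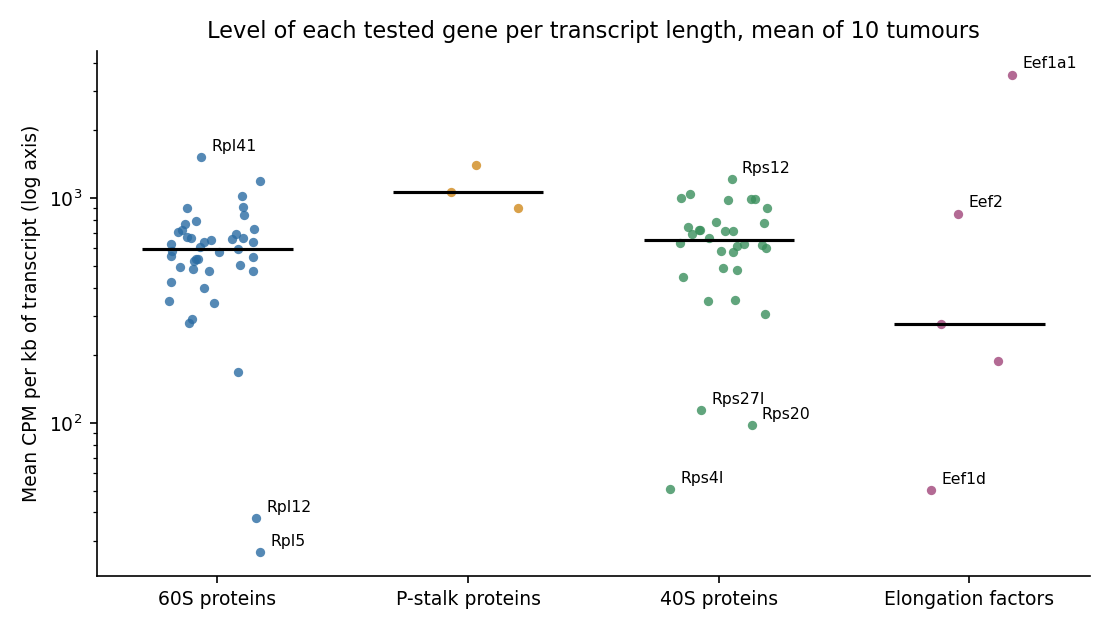
Mean level over 10 tumours of each tested gene, in CPM per kilobase of transcript on a log axis, by role, with the median of each role as a bar. Most ribosomal protein genes lie near the medians of 594 (60S) and 648 (40S), with Eef1a1 at 3536 on top and Rpl5 at 26.7 at the bottom.

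The paralogues known from single tissues and the pseudogenes Rpl32l and Rpl6l were at or near 0. Rpl10l, a retrogene used in male germ cells, and Rpl32l were at 0 in all 10 tumours. Rpl3l, the striated muscle form of Rpl3, had at most 0.492 CPM in labelled-deleted and 0.629 CPM in wild-type tumours. Rpl39l, the testis form of Rpl39, had at most 0.640 CPM in labelled-deleted and 0.495 CPM in wild-type tumours, and Rpl6l at most 0.0534 and 0.165 CPM. These 5 genes did not pass the low-count filter and no difference between groups was detectable for them at this depth. Rpl22l1, the paralogue of Rpl22 outside the symbol rule, had 51.5 to 70.0 CPM in labelled-deleted and 57.9 to 72.0 CPM in wild-type tumours, with a log2 fold change of -0.12 (SE 0.11). Rpl22 had one of -0.045 (SE 0.095).

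Reads of these genes can also fall in their many pseudogene copies. Pseudogene names of ribosomal proteins or elongation factors are carried by 322 rows, 206 of them with a count, and these rows took 0.183% to 0.260% of counts in labelled-deleted and 0.196% to 0.233% in wild-type tumours. Of the values of the 88 genes 73.8% were not whole, against 7.96% of all values in the table, so reads were divided between rows for most of these genes. The 5 tested genes with whole values alone had 2 log2 fold changes above 0 and 3 below, with a median of -0.015. The other 78 had 65 above 0 and 13 below, with a median of 0.057. This division of the genes was made after the values were seen.

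Genes of the same pathway outside the symbol rule were examined as lists, none of which had a gene past the adjusted threshold. The genes that build ribosomes were the list with the highest median. Of its 46 genes, all tested, 42 had a log2 fold change above 0 and 4 below, with a median of 0.194, or 0.092 without labelled-deleted tumour 1, beside 0.027 and 0.008 over all genes. Unadjusted p was under 0.05 for 4 of them, all higher in labelled-deleted tumours, beside 3.47% of all genes in that direction. Znhit6, an assembly factor of box C/D small nucleolar ribonucleoproteins, had 25.8, 23.3, 23.5, 24.8 and 23.5 CPM in labelled-deleted tumours 1 to 5, against 17.1, 20.8, 19.3, 19.96 and 19.3 CPM in wild-type tumours. Its groups did not overlap, as for 0.495% of all genes in that direction, and the log2 fold change was 0.33 (SE 0.09, p 0.00349, adjusted p 0.759, edgeR). Ubtf, which activates RNA polymerase I at ribosomal RNA genes, had 162.1, 142.0, 136.4, 158.7 and 122.9 CPM in labelled-deleted tumours, against 96.7, 126.9, 122.0, 118.8 and 117.7 CPM in wild-type tumours. Only labelled-deleted tumour 5 lay within the wild-type range, and the log2 fold change was 0.31 (SE 0.10, adjusted p 0.759, edgeR). Nop56, a core box C/D protein, had one of 0.25 (SE 0.10) and Heatr1, of the small subunit processome, one of 0.24 (SE 0.11), both with adjusted p 0.759 in edgeR.

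The remaining lists lay nearer to all genes. Of the 28 initiation factors, 23 were above 0 and 5 below, with a median of 0.078 (0.016 without labelled-deleted tumour 1). Of 25 tested mRNAs with a TOP sequence that encode other proteins, such as Tpt1 and Npm1, 20 were above 0 and 5 below, with a median of 0.053 (-0.039 without labelled-deleted tumour 1), the same 2 medians as the 83 genes. Tpt1 had 2430, 1626, 1603, 1482 and 1543 CPM in labelled-deleted tumours 1 to 5, against 1612, 1699, 1619, 1502 and 1679 CPM in wild-type tumours, and tumour 1 was again the highest. Of 11 tested further elongation factors and their modifiers, 7 were above 0 and 4 below, with a median of 0.026. Among them Eef1akmt1, which methylates eEF1A, had a log2 fold change of -0.27 (SE 0.12, p 0.0491, adjusted p 0.759, edgeR). Of 20 regulators of ribosome production, 15 were above 0 and 5 below, with a median of 0.076 (0.032 without labelled-deleted tumour 1). Larp4, which binds poly(A) tails, had a log2 fold change of 0.25 (SE 0.10, adjusted p 0.759, edgeR). The next smallest p in this list were those of Rptor at 0.35 (SE 0.16), Cdkn1a at -0.32 (SE 0.16) and Tsc1 at 0.185 (SE 0.104). Larp1 had a log2 fold change of 0.17 (SE 0.13) and Myc, a transcription factor that drives ribosome production, one of 0.16 (SE 0.12). The 4 small subunit genes that the symbol rule misses, Rps3a1, Fau, Rack1 and Rps27rt, had a median of 0.129, or 0.026 without labelled-deleted tumour 1.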

How the data were processed

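Groups and replicate numbers come from the sample titles. The count column taken for labelled-deleted tumour 1 lacks the number that its title carries in the tumour's ID, and was matched by the rest of the name, which no other title shares. The authors deposited estimated counts per gene, and 1 file per tumour of normalized log2 values for 25407 genes, whose transformation is not named and which served for 1 alternative. Per the submitters' processing notes, bcl2fastq 2.0, FastQC 0.11.9, HISAT2 2.2.1, RSEM 1.3.3, DESeq2 1.32.0 and build mm10 were used. Neither the annotation release nor the use of strand is stated in them. RSEM divides reads that fit several genes, which bears on genes with near-identical copies.

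Estimated counts were rounded, filtered with filterByExpr (minimum count 10) and tested with edgeR 4.0.16 (R 4.3.3) on all genes: trimmed mean of M values scaling, robust quasi-likelihood F test, Benjamini-Hochberg adjustment at 0.05. SEs were taken from the F statistic. CPM used scaled library sizes, and log2 CPM a prior count of 2. Totals of 10159891 to 18571519 make counting error small against the spread between tumours for genes of high CPM. For genes at lower CPM, such as Rps27l, Znhit6 and Eef1akmt1, counting error can be a large part of that spread. Pairs of libraries within a group differed beyond sampling noise (lowest chi-square per degree of freedom 26.1). Lengths are of the shortest best-ranked coding transcript in GENCODE M21 (GRCm38). Start sequences are from the RefSeq promoter table (GRCm38.p6).

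Named were a panel of genes, up to 4 genes of smallest p per role and per other list, the 5 highest and 5 lowest levels per length, the 5 largest and 5 smallest relative SDs, and every untested gene of the set. Rpl7, Rpl17, Rpl37a, Rps21, Tpt1, Npm1, Larp1 and Myc fall outside this rule and were named after their values were seen. Some results are not reported here. The genes and lists were chosen with earlier results of these data known. The scripts were checked on simulated data. Alternatives were limma-voom (limma 3.58.1), DESeq2 1.42.0, other scalings and filters, blocks, and left-out tumours. Python 3.11.15, pandas 2.3.3, scipy 1.17.1 and matplotlib 3.10.9 were used.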

Additional observations from a re-analysis of the deposited data

Results flagged for a closer look

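Within groups of 5, 3 of 54 sets of values had 1 tumour far from the other 4, judged by the gap to the nearest tumour as a fraction of the group's whole range of log2 CPM, and chance gives about 1 in 20 such sets. For Rpl32 in the labelled-deleted group, tumour 1 was high and its gap was 0.741 of the range. For Eef1a1 in the labelled-deleted group, tumour 1 was high and its gap was 0.766 of the range. For Ubtf in the wild-type group, tumour 1 was low and its gap was 0.722 of the range.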

How the results depend on the processing

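No gene of the set was called in any alternative. The number of genes at an unadjusted p under 0.05 was 1, and leaving out 1 tumour gave 0 to 2. The number above 0 was 67, and leaving out 1 tumour gave 20 (without labelled-deleted tumour 1) to 74. It was 9 without labelled-deleted tumours 1 and 2. With the tumour ID number as a block it was 35, beside 50.7% of all genes, and that block takes labelled-deleted tumours 1 and 4 out of the comparison. Leaving out 1 tumour moved the median log2 fold change between -0.039 and 0.103, the difference in the share of counts between -0.078 and 0.337 percentage points, and the median SD after subtraction to 0.0741.

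Only 25 of the genes with a printed fold change were followed through every setting. Of these 25, 18 kept their direction in all 10 settings other than leaving out 1 tumour. Without labelled-deleted tumours 1 and 2 the log2 fold change turned to -0.018 for Rpl32, -0.003 for Rplp0, -0.041 for Rplp2, -0.014 for Rps15a, -0.016 for Eef1g, -0.056 for Eef2 and -0.047 for Eef1a1. With the tumour ID number as a block it was -0.031 for Rplp2, -0.034 for Eef2 and -0.045 for Eef1a1, and 0 genes of the set were at an unadjusted p under 0.05. Of the same 25 genes, leaving out 1 tumour turned Rpl27a (-0.002 to 0.231), Rplp1 (-0.11 to 0.021) and Rplp2 (-0.054 to 0.087). It also turned Eef1b2 (-0.068 to 0.011), Eef2 (-0.051 to 0.085), Eef1a1 (-0.063 to 0.063) and Rpl22 (-0.096 to 0.011). Outside the 25, the values of Rpl3, Rpl5, Rpl10, Rpl11, Rpl13a, Rpl23, Rpl26, Rpl39, Rps6, Rps19 and Rpsa turned below 0 without labelled-deleted tumour 1. The cause was not tested.

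With the replicate number as a block, 0 genes of the set were called, 0 were at an unadjusted p under 0.05, and the median log2 fold change was 0.044. Deviations of same-numbered tumours from their group means correlated at 0.0687, 0.107, 0.317, -0.0157 and 0.387 for numbers 1 to 5, and 4 of the 10 tumours correlated best with their own number in the other group, so the numbers were not taken as pairs. The 5 untested genes had at most 0.64 CPM in any tumour and did not pass the low-count filter at this depth. Why their counts were low was not tested.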
